A study of Homo sapiens with 12 samples.

Results

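Transcripts of the blood clotting and fibrinolysis system were examined as 35 genes among the 61806 gene IDs counted in 12 poly(A)-selected RNA-seq libraries of established human liver cancer lines. The genes are a list of clotting factors, their inhibitors and the plasminogen system, taken by symbol, and each of the 35 matched a counted ID. The labels give 4 groups of 3 libraries. In libraries labelled Hep3B, a Tet-on (tetracycline-inducible) shRNA lowered CD146, and a Tet-on control shRNA served as its reference. In HepG2, CD146 was overexpressed from a vector, and pLVX served as its reference. CD146 is a cell adhesion molecule encoded by MCAM. Hep3B cultures were kept in DMEM and HepG2 cultures in MEM with added sodium pyruvate, both with fetal bovine serum and antibiotics, so that line, medium and kind of perturbation cannot be told apart between the lines. Neither the duration of induction nor whether a line was 1 clone is given in the sources used here. The titles number the libraries 1 to 3 in each group and do not state separate cultures. In the shRNA groups the numbers could instead stand for separate hairpins. The 3 libraries of a group share 1 treatment label and are handled here as replicates, and an SD or n = 3 of these groups may thus span hairpins. The p-values therefore speak of the spread among these 12 libraries, part or all of which may be technical.

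Most clotting factors are secreted by hepatocytes as inactive precursors. A cascade of proteases activates thrombin, thrombin cuts fibrinogen, and the fibrin that forms is crosslinked into a clot. Serpins and other inhibitors restrain these proteases, and plasmin, made from plasminogen by 2 activators, dissolves fibrin. Several of the factors need a vitamin K-dependent modification, which the enzymes encoded by GGCX and VKORC1 sustain. Some parts of the system are made mainly outside hepatocytes, such as factor VIII, thrombomodulin and tissue plasminogen activator in endothelial cells.

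Totals ran from 12772991 to 18129816 counts per library. The unit of level is the CPM, a count per 1e6 of the TMM-adjusted library total, and a count of 3, taken as the floor of detection, was worth 0.151 to 0.265 CPM. This floor covers counting error only, because without molecular identifiers several reads can stem from 1 molecule. MCAM stood at 20.1, 22.1 and 24.5 CPM with the CD146 shRNA, against 104, 102 and 108 CPM with the control shRNA, which left 21.1% of the control level. In HepG2 it stood at 2130, 2124 and 2089 CPM with CD146 overexpression, against 25.0, 25.8 and 25.8 CPM with pLVX (vector and endogenous transcripts counted together). The libraries labelled Hep3B were nearly without the transcripts that define hepatocytes. The 10 hepatocyte markers summed to 3.38 to 55.0 CPM with the CD146 shRNA and to 4.61 to 5.58 CPM with the control shRNA, against 50300 to 50800 CPM with CD146 overexpression and 57500 to 59900 CPM with pLVX. APOA2, APOC3 and TTR were at 0 in all control shRNA libraries, and these 6 libraries are therefore called by their label. RBP4 was the 1 marker with at least 1 CPM in the control shRNA group and the 1 marker tested in this line, at 2.22 CPM with the CD146 shRNA and 4.37 CPM with the control shRNA (called lower, edgeR adjusted p = 1.9e-05). CD146 shRNA replicate 3 stood apart from the other 5, with 298 counts of ALB against 0 to 5, and results that rest on it are given with and without it.

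**Figure D1:**
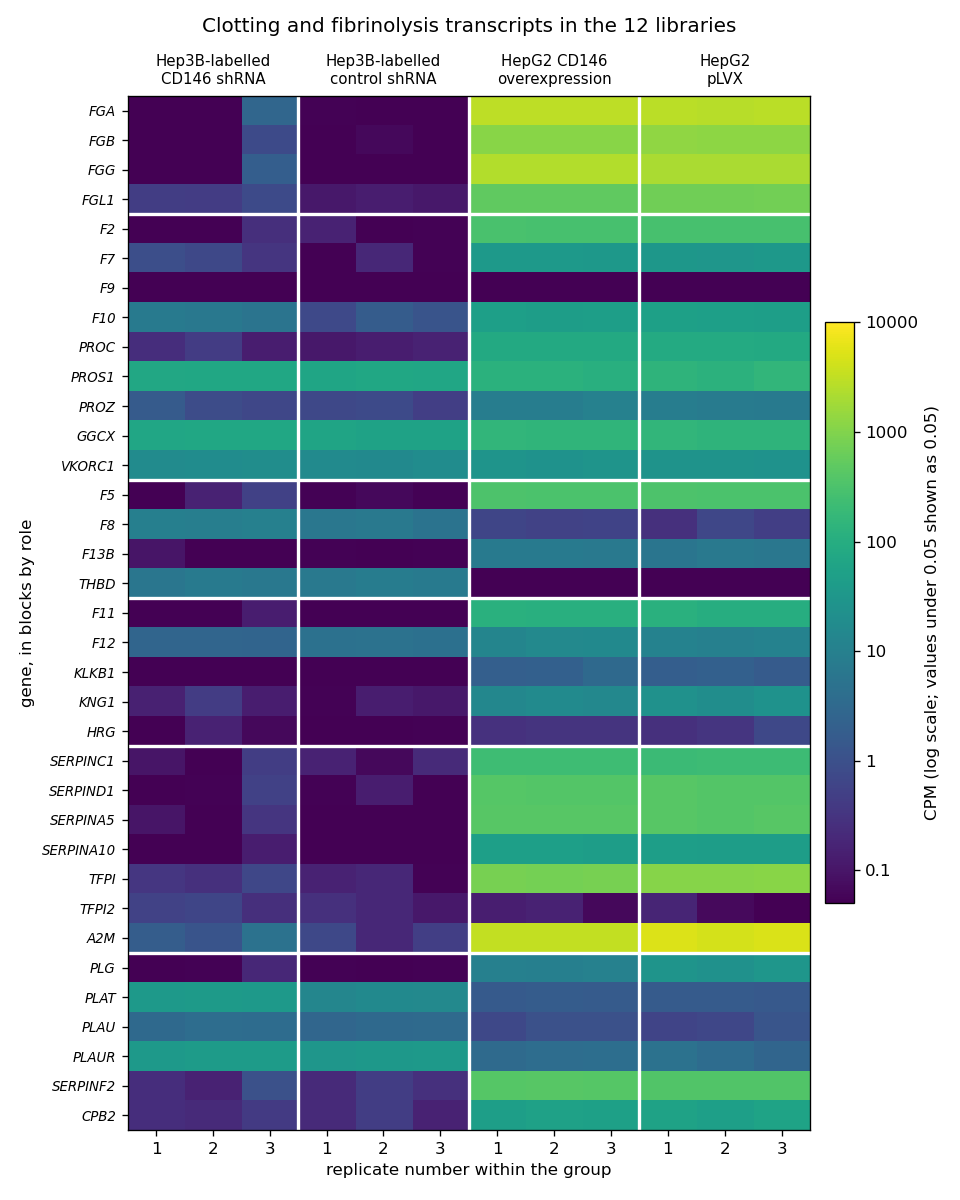
CPM (colour, log scale) of the 35 clotting and fibrinolysis genes (rows, in blocks by role) in the 12 libraries (columns, by group and replicate number). Most rows are bright in the 6 HepG2 libraries and dark in the 6 libraries labelled Hep3B, while F8, THBD, PLAT, PLAU and PLAUR run the other way.

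Levels of different genes were compared by the deposited FPKM, which are scaled by gene length. In HepG2 the system was expressed broadly, with a mean of at least 10 FPKM for 18 members with CD146 overexpression and for 17 with pLVX. A2M, which encodes the broad protease inhibitor alpha-2-macroglobulin, averaged 482 ± 6.16 FPKM with CD146 overexpression and 691 ± 35.2 FPKM with pLVX (SD, n = 3 each, as below). The fibrinogen alpha chain gene FGA averaged 715 ± 6.90 FPKM with CD146 overexpression and 628 ± 11.3 FPKM with pLVX. With pLVX, A2M and FGA were followed by the fibrinogen gamma chain gene FGG at 533 ± 6.90 FPKM and the beta chain gene FGB at 259 ± 3.52 FPKM. Below them came FGL1, a fibrinogen-like protein of the liver, at 193 ± 3.98 FPKM, and the inhibitors of thrombin and plasmin encoded by SERPIND1, SERPINF2 and SERPINC1 at 152 ± 7.41, 138 ± 0.325 and 108 ± 2.15 FPKM. Prothrombin (F2) averaged 102 ± 0.995 FPKM there, and plasminogen (PLG) 3.39 ± 0.450 FPKM.

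The order was another in the libraries labelled Hep3B. PROS1, which encodes the anticoagulant cofactor protein S, was the 1 member with a mean of at least 10 FPKM, at 14.8 FPKM with the CD146 shRNA and 14.6 FPKM with the control shRNA. In the control shRNA libraries VKORC1, PLAUR (the urokinase receptor), GGCX, PLAT (tissue plasminogen activator) and THBD (thrombomodulin) followed, with means of 8.91, 8.25, 4.88, 2.17 and 2.08 FPKM. With the control shRNA, 15 of the 17 members with at least 10 FPKM in pLVX libraries averaged under 1 FPKM. F9, the gene of factor IX, had 0 counts in all 12 libraries, so that its level lay below the floor throughout.

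Between the control groups of the lines, 32 members passed the filter on low counts, which took all 12 libraries. Most of them passed through the line where they are high, so that a difference was built into their being tested and the count is given as a description. In HepG2 pLVX libraries 27 were higher and 5 lower than in control shRNA libraries, beside 83.2% of all 18870 genes tested (39.7% higher and 43.4% lower). The members' median log2 difference was 8.88, against -0.08 for all genes tested. Of the 27 that were higher, 22 averaged under 1 CPM in the control shRNA libraries, and for those at 0 counts there a difference is given as a bound against 3 counts over the group. FGG was at least 37500-fold higher, the protein C inhibitor gene SERPINA5 at least 7120-fold, factor XI (F11) at least 1840-fold, the protein Z-dependent inhibitor gene SERPINA10 at least 788-fold and prekallikrein (KLKB1) at least 33.1-fold.

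The 5 others that were higher in HepG2 were expressed in both lines. GGCX, the carboxylase, averaged 146 ± 5.86 CPM in pLVX libraries and 58.5 ± 2.35 CPM in control shRNA libraries (log2 difference 1.31), and VKORC1, which recycles vitamin K, averaged 26.1 ± 1.22 and 17.6 ± 1.39 CPM in the same order (0.57). PROS1 averaged 140 ± 11.8 CPM in pLVX libraries and 69.1 ± 2.06 CPM in control shRNA libraries (1.02). Factor XII (F12) averaged 10.8 ± 0.668 CPM in pLVX libraries and 4.72 ± 0.254 CPM in control shRNA libraries (1.19), and factor X (F10) 49.8 ± 2.65 and 1.24 ± 0.513 CPM (5.36).

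The 5 members lower in HepG2 were THBD, F8, the genes of the plasminogen activators (PLAT and PLAU) and that of the urokinase receptor (PLAUR). THBD had 0 counts in all 6 HepG2 libraries and averaged 7.56 ± 0.924 CPM in control shRNA libraries, at least 97.8-fold more than in pLVX libraries. Factor VIII (F8) averaged 0.471 ± 0.203 CPM in pLVX libraries and 6.18 ± 0.833 CPM in control shRNA libraries (log2 difference -3.63). PLAT averaged 1.62 ± 0.0968 CPM in pLVX libraries and 15.2 ± 1.37 CPM in control shRNA libraries (-3.22). PLAUR averaged 3.73 ± 1.12 CPM in pLVX libraries and 33.1 ± 2.26 CPM in control shRNA libraries (-3.17), and urokinase (PLAU) averaged 0.854 ± 0.363 and 3.16 ± 0.329 CPM (-1.88). Adjusted p-values of all 32 lay at or below 9.47e-09 (edgeR), and the 3 members not tested were F9, HRG and TFPI2. For most of the 32 a difference was built into their being tested, so these p-values are a description only.

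Fibrinogen, prothrombin, factor XIIIB and plasminogen are textbook products of the liver. The stretches shown are those of the members that matched the first motif below, and that of FGG. They were not picked by the size of the contrast between the lines. SERPINA5 and F11, with log2 differences of 15.6 and 13.7, are not shown, while F13B (7.11) and PLG (9.19) are. Promoters were taken from RefSeq (GRCh38.p14), 250 bases before to 50 after each gene start, and 29 of the 35 members had one. The letters GTTAATNNT, a short form of the HNF1 motif, were searched on both strands. They stood in the promoters of F13B, F2, FGA, FGB and PLG, 5 of 29, beside 2.35% of 35116 promoters of that length, and that of FGG held none. A member counts, here and below, if any of its promoters held the letters, whereas the percentages are of single promoters. The 2 shares are thus not of like units. HNF1 is a homeodomain factor of hepatocytes. Capitals mark the motif, which lies on the other strand in each of these 5, and letters run 5′ to 3′ along the gene. Each of the first 5 stretches covers positions -100 to -1 before the gene start, and that of PLG runs from -10 to 20, with no position 0. FGB and PLG have more than 1 promoter in the table, of which the first was taken.
FGA (chr4:154590743-154590842, minus strand): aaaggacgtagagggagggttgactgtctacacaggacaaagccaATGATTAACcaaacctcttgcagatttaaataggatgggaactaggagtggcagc
FGB (chr4:154562880-154562979, plus strand): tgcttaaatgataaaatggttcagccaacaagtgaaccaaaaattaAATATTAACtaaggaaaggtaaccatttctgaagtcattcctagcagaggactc
FGG (chr4:154612657-154612756, minus strand, no match): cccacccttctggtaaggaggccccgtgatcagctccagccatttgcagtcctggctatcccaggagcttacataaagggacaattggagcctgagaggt
F2 (chr11:46719113-46719212, plus strand): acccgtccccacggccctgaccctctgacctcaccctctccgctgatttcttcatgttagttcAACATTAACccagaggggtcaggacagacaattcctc
F13B (chr1:197067261-197067360, minus strand): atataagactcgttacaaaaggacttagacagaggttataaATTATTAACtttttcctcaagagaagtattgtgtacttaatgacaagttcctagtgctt
PLG (chr6:160702183-160702212, plus strand): gtctctgagagaATCATTAACttaatttga

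F10 and PROZ, the gene of protein Z, lie side by side on chromosome 13 (GRCh38, 113122814 to 113149529 and 113158654 to 113172383, plus strand) with F7 next to them. F10 and PROZ both match the motif below, as does PLAU, which is not shown, and F10 rose in the comparison that follows. The letters CAAAGTCC, a short form of the HNF4 motif, stood in the promoters of F10, PROZ and PLAU, 3 of 29, beside 1.20% of all promoters. HNF4 is a nuclear receptor of hepatocytes. Capitals again mark the motif, which reads on the other strand. Matches are descriptions of these letters and not of binding.
F10 (chr13:113122789-113122818, plus strand, positions -10 to 20): ctggggcgtGGACTTTGctccagcagcctg
PROZ (chr13:113158548-113158647, plus strand, positions -100 to -1): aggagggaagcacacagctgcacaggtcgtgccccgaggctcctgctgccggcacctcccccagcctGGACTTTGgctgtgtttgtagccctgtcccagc
The other forms of the motifs searched were also counted. GTTAATNAT stood in 3 members (F13B, FGA and PLG; 0.792% of all promoters), CAAAGTC in 4 (3.37%), and AGGTCAAAG in 0 (0.276%). The C/EBP form TTGCNNAA stood in 9 members (10.5%) and TTGCGCAA in 0 (0.151%). The FOXA forms TGTTTAC and TGTTTGC stood in 2 and 1 (3.42% and 3.89%), the TATA box TATAAA in 2 (11.5%), and the AP-1 form TGACTCA in 1, PLAUR (4.95%). CAAAGTCC contains CAAAGTC, and GTTAATNNT covers GTTAATNAT.

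The comparison of CD146 shRNA with control shRNA asked which clotting transcripts changed when CD146 was lowered in libraries labelled Hep3B. In all, 6 members rose (F10, A2M, PLAT, F8, GGCX and PLAUR, by falling log2 fold change) and F12 fell. Of the 35 members, 12 passed the filter on low counts, and 7 of the 12 changed (58.3%), beside 55.3% of all 16968 genes tested (26.8% higher and 28.5% lower), so the share of members was near that of all genes. The members' median log2 fold change was 0.25, against 0.00 for all genes. Both groups stood apart without overlap in 7 of the 12 members, beside 59.8% of all genes tested. Of the 7 that changed, 3 did so at least 2-fold. In these bulk libraries fewer cells of a kind and less RNA per cell cannot be told apart.

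Factor X, which joins both arms of the cascade and cuts prothrombin, had the largest fitted log2 fold change of the 12 members tested, close to that of A2M. F10 stood at 7.81, 6.54 and 5.39 CPM with the CD146 shRNA, against 0.751, 1.77 and 1.19 CPM with the control shRNA. Every CD146 shRNA library lay above every control shRNA library, and F10 rose 5.48-fold (log2 fold change 2.45, SE 0.21, edgeR adjusted p = 5.64e-13). F10 shares its locus with F10-AS1, AL137002.2 and KARSP2, whose reads cannot be told from its own without a stated strand setting. Its neighbours on chromosome 13 were lower. F7, factor VII, which starts clotting with tissue factor, was too low to test in this line and had 19, 13 and 5 counts with the CD146 shRNA, against 0, 3 and 1 with the control shRNA. PROZ stood at 1.66, 0.865 and 0.658 CPM with the CD146 shRNA, against 0.698, 0.789 and 0.487 CPM with the control shRNA, and the groups overlapped (log2 fold change 0.74, SE 0.36, adjusted p = 0.076).

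The other vitamin K-dependent members and their enzymes moved little. GGCX stood at 68.5, 71.9 and 71.6 CPM with the CD146 shRNA, against 61.1, 57.8 and 56.5 CPM with the control shRNA. The groups did not overlap, and GGCX rose 1.21-fold (log2 fold change 0.27, SE 0.05, adjusted p = 2.05e-05). GGCX overlaps MAT2A in the annotation. VKORC1 averaged 19.0 ± 0.972 CPM with the CD146 shRNA and 17.6 ± 1.39 CPM with the control shRNA (log2 fold change 0.10, adjusted p = 0.3). PROS1 stood at 74.0, 71.5 and 70.5 CPM with the CD146 shRNA, against 66.9, 71.0 and 69.5 CPM with the control shRNA. The groups overlapped, and PROS1 did not pass the test (log2 fold change 0.06, SE 0.05, adjusted p = 0.309).

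Among the activators of plasminogen, PLAT rose. It stood at 36.0, 39.6 and 35.4 CPM with the CD146 shRNA, against 13.7, 16.4 and 15.5 CPM with the control shRNA. The groups were far apart, at 2.44-fold (log2 fold change 1.29, SE 0.08, adjusted p = 6.98e-18). PLAU, the other activator, averaged 3.66 ± 0.345 CPM with the CD146 shRNA and 3.16 ± 0.329 CPM with the control shRNA, with overlapping groups (log2 fold change 0.21, SE 0.18, adjusted p = 0.326). PLAUR, which holds urokinase at the cell surface, stood at 35.5, 39.8 and 41.1 CPM with the CD146 shRNA, against 31.0, 32.9 and 35.5 CPM with the control shRNA. Its groups touched without overlap, and it rose 1.17-fold (log2 fold change 0.22, SE 0.07, adjusted p = 0.004). This call was lost without control shRNA replicate 1 (log2 fold change 0.17, adjusted p = 0.0517). It was also lost by limma on log2(FPKM + 0.1) and log2(FPKM + 1) (adjusted p = 0.0797 and 0.0786). PLG itself had 1, 1 and 3 counts with the CD146 shRNA and 1, 0 and 1 with the control shRNA.

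Factor VIII, the cofactor that speeds activation of factor X, rose as well. F8 stood at 9.88, 9.41 and 10.1 CPM with the CD146 shRNA, against 6.28, 6.97 and 5.31 CPM with the control shRNA. Its groups did not overlap, and the difference was 1.59-fold (log2 fold change 0.67, SE 0.12, adjusted p = 8.44e-06). F8 overlaps FUNDC2 and H2AFB1 on the opposite strand, and BX842559.1, BX842559.2, EEF1A1P31 and MIR1184-1 on its own strand. THBD, the endothelial receptor that turns thrombin towards protein C, averaged 6.67 ± 0.630 CPM with the CD146 shRNA and 7.56 ± 0.924 CPM with the control shRNA, and its groups overlapped (log2 fold change -0.17, adjusted p = 0.249). The 10 endothelial markers summed to 39.4 to 41.4 CPM with the CD146 shRNA and to 15.1 to 17.4 CPM with the control shRNA. Of the 4 tested, 3 were called higher, beside 26.8% of all genes tested. CDH5 alone averaged 18.3 CPM with the CD146 shRNA and 0.687 CPM with the control shRNA. KDR, TIE1 and EMCN were at 0 with the CD146 shRNA, and KDR and TEK with the control shRNA. The platelet markers GP1BA and ITGA2B, 2 of the 3 tested among 6, were also called higher while PF4, PPBP and GP9 were at 0. All 3 fibroblast markers tested, among 6, were called higher (summed 86.8 to 107 CPM with the CD146 shRNA and 52.6 to 60.8 CPM with the control shRNA). Of these, COL1A2 had 3 counts in each control shRNA library and passed the filter through the CD146 shRNA group. The part of these markers in the changes of F8 and PLAT was not tested.

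F12, which starts the contact pathway, was the member that fell. It stood at 2.72, 2.65 and 2.57 CPM with the CD146 shRNA, against 4.67, 5.00 and 4.50 CPM with the control shRNA. The CD146 shRNA libraries lay within 0.0787 CPM of SD around 2.65 CPM and well below the others, at 56.4% of the control level (log2 fold change -0.83, SE 0.17, adjusted p = 5.72e-05). F12 overlaps GRK6 on the opposite strand. F11, KLKB1, KNG1 and HRG, the rest of the contact system, were too low to test in this line.

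A2M passed the filter through its level in the CD146 shRNA group, so that a difference was built into its being tested. It stood at 1.82, 1.19 and 5.00 CPM with the CD146 shRNA, against 0.698, 0.197 and 0.487 CPM with the control shRNA. The highest value was that of CD146 shRNA replicate 3, and the log2 fold change was 2.41 with it (SE 0.41, adjusted p = 4.29e-06) and 1.65 without it (adjusted p = 0.000659). The call was lost by limma on the deposited FPKM (adjusted p = 0.0574). A2M overlaps A2M-AS1.

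**Figure D2:**
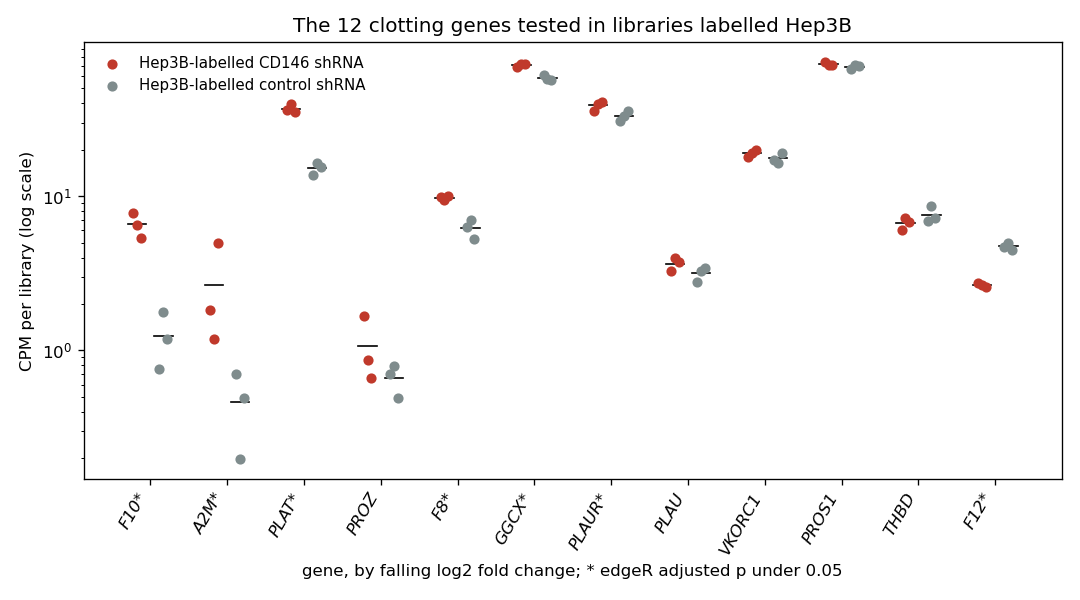
CPM per library (log scale) of the 12 clotting genes tested in libraries labelled Hep3B, CD146 shRNA in red and control shRNA in grey, with a bar at each group mean and genes ordered by falling log2 fold change. Groups are apart for F10, A2M, PLAT, F8, GGCX, PLAUR and F12, whose asterisks mark an edgeR adjusted p under 0.05.

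The 23 members that were not tested in this line lay at or near the floor. In the control shRNA group 13 of the 35 members had a sum of 3 counts or fewer and 6 had none, against 5 and 2 in the CD146 shRNA group. This contrast rests in part on CD146 shRNA replicate 3. FGA, FGB, FGG, F11 and SERPINA10 had 0 counts in CD146 shRNA replicates 1 and 2 and were counted only in replicate 3 of that group. For 20 of the untested members that averaged at least 1 CPM with pLVX, counts were summed in each library. The sum was 63, 54 and 176 counts in CD146 shRNA replicates 1, 2 and 3, and 27, 31 and 25 counts in the control shRNA libraries. These sums came to 0.0307%, 0.0282% and 0.112% of the HepG2 mean in the CD146 shRNA libraries and to 0.0131% to 0.0197% in the control shRNA libraries. The summed hepatocyte markers moved with them in CD146 shRNA replicate 3, at 0.101% of the HepG2 mean, against 0.00619% and 0.00624% in the other CD146 shRNA libraries and 0.00845% to 0.0102% in the control shRNA libraries. APOB, ALB and TF had the most counts in that replicate, at 306, 298 and 103. TTR and RBP4 went another way, with 12, 20 and 2 and with 48, 36 and 35 counts in CD146 shRNA replicates 1, 2 and 3. The other markers were highest in replicate 3.

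Fibrinogen showed the higher level in CD146 shRNA replicate 3 most plainly. FGA had 43 counts in CD146 shRNA replicate 3 and 0 in the other CD146 shRNA libraries, against 1, 0 and 0 with the control shRNA. FGG had 29 counts in that replicate and 0 in the 5 other libraries. FGB had 12 counts there and 0 in the other CD146 shRNA libraries, against 0, 1 and 0 with the control shRNA. In replicate 3, FGA stood at 0.0982%, FGG at 0.0831%, A2M at 0.123% and ALB at 0.0965% of their HepG2 means. FGL1 did not follow this pattern, with 9, 8 and 12 counts with the CD146 shRNA and 2 in each control shRNA library. F7 had its lowest count with the CD146 shRNA in replicate 3.

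The untested inhibitors and carriers were as low. TFPI had 7, 5 and 10 counts with the CD146 shRNA, against 3, 3 and 1 with the control shRNA. SERPINF2 had 5, 3 and 16 counts with the CD146 shRNA, against 4, 7 and 5 with the control shRNA, and SERPINC1 had 2, 0 and 7, against 3, 1 and 4. All 3 were highest in CD146 shRNA replicate 3. KNG1 had 3, 8 and 2 counts with the CD146 shRNA, against 1, 2 and 2 with the control shRNA. SERPINA5 had 2, 0 and 5 counts with the CD146 shRNA and 0 in each control shRNA library.

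**Figure D3:**
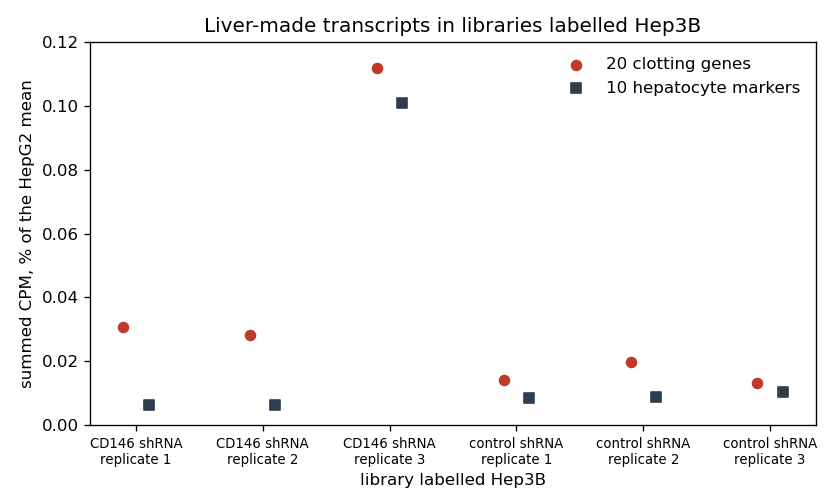
Summed CPM of 20 clotting genes (circles) and of 10 hepatocyte markers (squares) in each library labelled Hep3B, as a percentage of the mean of the 6 HepG2 libraries. CD146 shRNA replicate 3 lies at 0.112% and 0.101%, and the other 5 libraries lie at or below 0.0307%.

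The comparison of CD146 overexpression with pLVX asked which clotting transcripts changed when CD146 was raised in HepG2. PLG fell to 37.7% of its pLVX level, and KNG1, A2M, FGL1, TFPI, PROS1 and FGB fell by less, while F12, SERPINF2, FGG, SERPINC1 and FGA rose. Of the 35 members 30 were tested, and 12 of the 30 changed (40.0%), 5 higher and 7 lower, beside 19.8% of all 15300 genes tested (9.55% higher and 10.3% lower). The groups stood apart without overlap in 16 of the 30, beside 33.6% of all genes tested. The members' median log2 fold change was 0.04, against 0.00 for all genes. Changes were under 1.5-fold in 9 of the 12, and 1, that of PLG, was at least 2-fold. Shares of members or markers and of all genes, here and below, were not compared at like levels of expression. At its high level, FGA was called at a change of 1.08-fold.

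The plasminogen system split. PLG stood at 10.4, 9.62 and 10.6 CPM with CD146 overexpression, against 27.3, 23.6 and 30.7 CPM with pLVX. No value of one group came near the other (log2 fold change -1.41, SE 0.10, adjusted p = 7.61e-18). SERPINF2, which encodes the main inhibitor of plasmin, stood at 407, 422 and 410 CPM with CD146 overexpression, against 367, 364 and 361 CPM with pLVX. Its groups did not overlap, and it rose 1.13-fold (log2 fold change 0.18, SE 0.03, adjusted p = 1.74e-05). CPB2, which protects fibrin from plasmin, averaged 50.7 ± 3.09 CPM with CD146 overexpression and 55.1 ± 5.23 CPM with pLVX and was not called (log2 fold change -0.12, SE 0.06, adjusted p = 0.17). PLAT stood at 1.62, 1.76 and 1.66 CPM with CD146 overexpression, against 1.68, 1.68 and 1.51 CPM with pLVX, and PLAUR at 3.38, 3.93 and 4.07 CPM, against 4.87, 3.69 and 2.62 CPM. PLAU averaged 0.922 ± 0.188 CPM with CD146 overexpression and 0.854 ± 0.363 CPM with pLVX. None of these 3 was called, with log2 fold changes of 0.04 for PLAT, 0.04 for PLAUR and 0.11 for PLAU (SE 0.27, 0.19 and 0.38), and their groups overlapped.

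All 4 fibrinogen and fibrinogen-like genes changed, and not in 1 direction. FGA stood at 2976, 3021 and 2989 CPM with CD146 overexpression, against 2811, 2702 and 2774 CPM with pLVX (log2 fold change 0.12, SE 0.03, adjusted p = 0.0017), a call lost in a fit of all 12 libraries (adjusted p = 0.278). FGG stood at 2430, 2466 and 2412 CPM with CD146 overexpression, against 2138, 2153 and 2168 CPM with pLVX (log2 fold change 0.18, SE 0.03, adjusted p = 2.14e-06). FGB stood at 1124, 1137 and 1117 CPM with CD146 overexpression, against 1288, 1250 and 1275 CPM with pLVX (log2 fold change -0.18, SE 0.03, adjusted p = 4.25e-06). No groups overlapped, and FGB was the chain gene that was lower. FGL1 stood at 501, 498 and 504 CPM with CD146 overexpression, against 723, 701 and 727 CPM with pLVX. It fell to 69.8% of the pLVX level (log2 fold change -0.52, SE 0.03, adjusted p = 2.78e-20).

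The 3 chain genes lie within one cluster on chromosome 4 (GRCh38, 154562956 to 154612967), and their products join in equal numbers in the fibrinogen molecule. Their shares of the summed FPKM do not depend on how libraries are scaled. FGB held 15.2%, 15.2% and 15.1% with CD146 overexpression, against 18.3%, 18.2% and 18.2% with pLVX, a mean difference of -3.08 percentage points. FGG held 39.8 ± 0.126% with CD146 overexpression and 37.5 ± 0.517% with pLVX, and FGA 45.0 ± 0.155% and 44.2 ± 0.423% (SD, n = 3 each). In each of the 3 the groups did not overlap, and an exact permutation test (two-sided) returned p = 0.1 for each, the lowest value possible with 3 libraries a group.

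**Figure D4:**
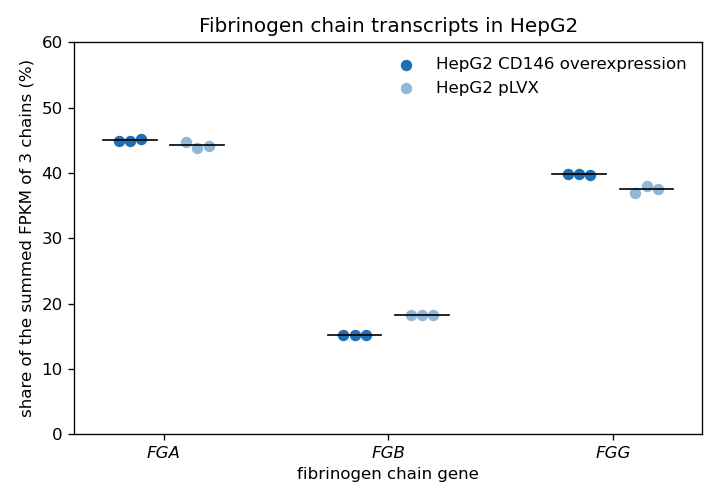
Share of each fibrinogen chain gene in the summed FPKM of the 3 chains (percent, axis from 0) in the 6 HepG2 libraries, CD146 overexpression in dark blue and pLVX in light blue, with a bar at each group mean. FGB averaged 15.2% with CD146 overexpression and 18.2% with pLVX, and the points of a group nearly coincide.

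Of the vitamin K-dependent proteins and their enzymes, 8 were tested and 1 changed. PROS1 stood at 122, 123 and 110 CPM with CD146 overexpression, against 140, 128 and 152 CPM with pLVX. The groups did not overlap, at 84.6% of the pLVX level (log2 fold change -0.24, SE 0.05, adjusted p = 8.2e-05), and the call was lost by limma on FPKM (adjusted p = 0.247). F2 averaged 294 ± 5.41 CPM with CD146 overexpression and 289 ± 3.67 CPM with pLVX (log2 fold change 0.02, SE 0.03), and protein C (PROC) 83.8 ± 0.610 and 85.6 ± 1.32 CPM (-0.03, SE 0.05). F10, which rose in libraries labelled Hep3B, stood at 50.0, 44.5 and 46.8 CPM with CD146 overexpression, against 52.4, 49.9 and 47.1 CPM with pLVX. Its groups overlapped (log2 fold change -0.08, SE 0.06, adjusted p = 0.378). GGCX stood at 154, 147 and 150 CPM with CD146 overexpression, against 152, 143 and 142 CPM with pLVX (0.05, SE 0.04, adjusted p = 0.479). F7 stood at 36.2, 36.2 and 34.2 CPM with CD146 overexpression, against 32.5, 30.4 and 33.6 CPM with pLVX. PROZ stood at 8.81, 8.90 and 10.7 CPM with CD146 overexpression, against 8.67, 7.91 and 7.63 CPM with pLVX. The groups of F7 and PROZ lay apart, but neither passed the test (log2 fold changes 0.14 and 0.24, adjusted p = 0.122 and 0.169). F8 was too low to test and had 0.634, 0.561 and 0.573 CPM with CD146 overexpression, against 0.265, 0.670 and 0.477 CPM with pLVX. The cofactor F5 averaged 318 CPM in both groups (SD 8.19 with CD146 overexpression and 13.4 with pLVX), and F13B, the carrier subunit of the fibrin crosslinking enzyme, 7.21 ± 0.242 and 6.34 ± 0.550 CPM.

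In the contact system, F12 rose and KNG1 fell. F12 stood at 13.03, 15.5 and 16.0 CPM with CD146 overexpression, against 11.3, 10.1 and 11.1 CPM with pLVX. Its groups did not overlap, and the difference was 1.38-fold (log2 fold change 0.46, SE 0.10, adjusted p = 0.00067). KNG1, the gene of kininogen, which carries prekallikrein and factor XI to surfaces, stood at 14.0, 17.2 and 14.8 CPM with CD146 overexpression, against 23.8, 20.3 and 25.3 CPM with pLVX. It fell to 66.3% of the pLVX level (log2 fold change -0.59, SE 0.09, adjusted p = 9.35e-07), a call that limma on FPKM lost (adjusted p = 0.0509). KNG1 overlaps AC068631.1 on the opposite strand. F11 and KLKB1 averaged 113 ± 1.31 and 2.48 ± 0.719 CPM with CD146 overexpression and 106 ± 7.75 and 1.898 ± 0.208 CPM with pLVX, and neither was called (log2 fold changes 0.10 and 0.40, SE 0.04 and 0.25). HRG had 3 to 9 counts in each HepG2 library and was not tested.

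The inhibitors also moved both ways. A2M stood at 3256, 3291 and 3227 CPM with CD146 overexpression, against 5151, 4625 and 4931 CPM with pLVX. It fell to 66.4% of the pLVX level with no overlap (log2 fold change -0.59, SE 0.03, adjusted p = 8.68e-23). TFPI, which blocks factor VIIa with tissue factor and factor Xa, stood at 826, 792 and 817 CPM with CD146 overexpression, against 1085, 1094 and 1150 CPM with pLVX. It fell to 73.0% (log2 fold change -0.45, SE 0.03, adjusted p = 5.48e-18) and overlaps AC007319.1. SERPINC1, the gene of antithrombin, stood at 229, 229 and 223 CPM with CD146 overexpression, against 205, 210 and 211 CPM with pLVX. It rose 1.08-fold (log2 fold change 0.12, SE 0.04, adjusted p = 0.0116), a call lost without CD146 overexpression replicate 2 (adjusted p = 0.0589) and in the fit of all 12 libraries (0.0656). SERPINA5 stood at 429, 419 and 418 CPM with CD146 overexpression, against 423, 391 and 412 CPM with pLVX, with overlapping groups (log2 fold change 0.05, SE 0.03, adjusted p = 0.363). The heparin cofactor gene SERPIND1 averaged 391 ± 11.9 CPM with CD146 overexpression and 397 ± 21.4 CPM with pLVX, and SERPINA10 48.1 ± 2.35 and 45.2 ± 1.65 CPM, and neither was called (log2 fold changes -0.02 and 0.09). TFPI2, which inhibits plasmin and other proteases in the matrix, had 0 to 2 counts in each HepG2 library and 2 to 12 in each library labelled Hep3B.

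**Figure D5:**
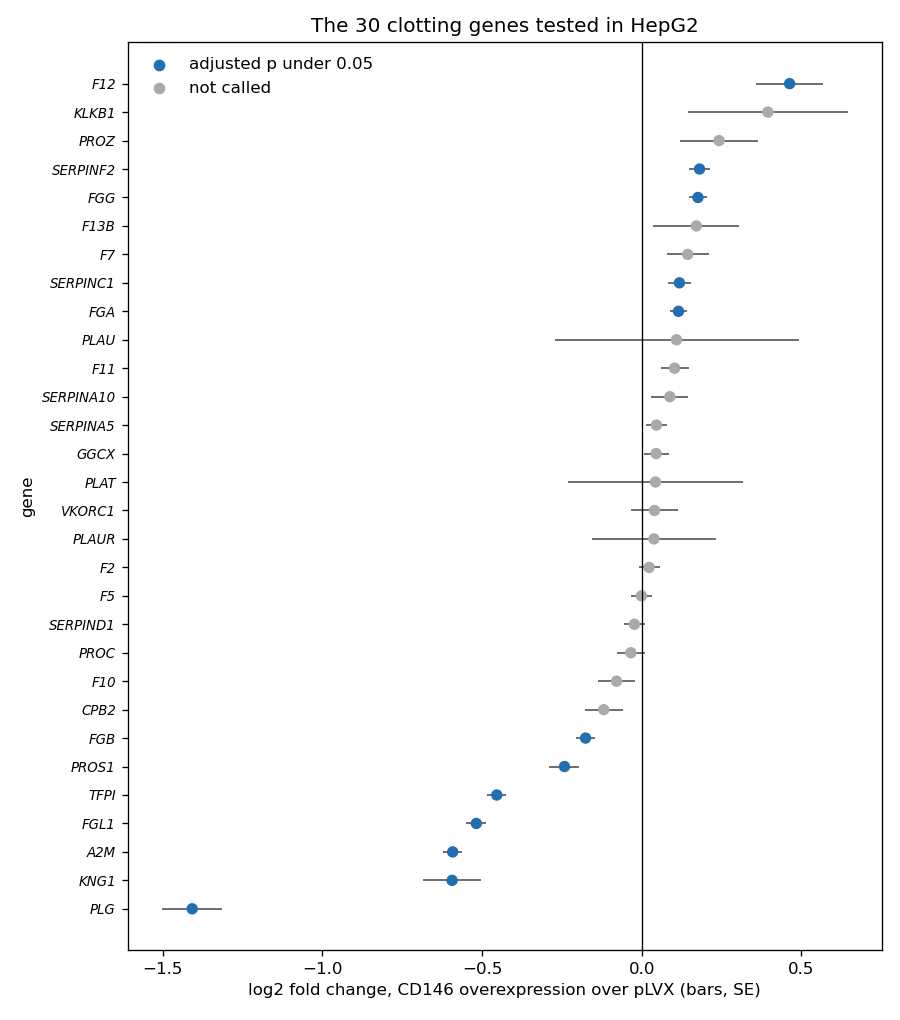
Log2 fold change of CD146 overexpression over pLVX for the 30 clotting genes tested in HepG2, with bars of 1 SE, blue where the edgeR adjusted p is under 0.05 and grey elsewhere. PLG lies at -1.41, and the other 11 called genes lie between -0.59 and 0.46.

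Some hepatocyte markers moved beside these changes. Of the 10 markers, 5 were called lower and 0 higher in HepG2 with CD146 overexpression, beside 10.3% lower and 9.55% higher of all genes tested. The 10 summed to 50300 to 50800 CPM, against 57500 to 59900 CPM with pLVX. ALB made up the largest part of that change, at 16580 ± 161 CPM with CD146 overexpression and 24020 ± 542 CPM with pLVX. APOA1, APOB, APOC3, TF and RBP4 were not called. Among 6 macrophage and leukocyte markers, 1 of 3 tested was called lower, and their summed level, nearly all of it LYZ, was 1060 to 1130 CPM with CD146 overexpression, against 1430 to 1500 CPM with pLVX. PTPRC and TYROBP were at 0 with CD146 overexpression. The part of these markers in the members' changes was not tested.

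Both lines tested 10 of the members, and F12 and A2M were the 2 called in both. Of all genes tested, 55.3% were called in libraries labelled Hep3B and 19.8% in HepG2. The share of all genes called in both was not counted, so the 2 of 10 is a description only. F12 was lower with the CD146 shRNA (56.4% of its control) and higher with CD146 overexpression (138% of pLVX). A2M was higher with the CD146 shRNA and lower with CD146 overexpression, with levels that differed between the lines by a log2 value of 13.3. F10, PLAT, GGCX and PLAUR rose with the CD146 shRNA and were not called in HepG2, and PROS1 fell with CD146 overexpression and was not called in libraries labelled Hep3B. A call in 1 line alone does not show a difference between the lines, which has its own test. VKORC1, PLAU and PROZ were called in neither line.

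The difference itself was tested as the effect of CD146 overexpression over pLVX in HepG2 minus the effect of control shRNA over CD146 shRNA in libraries labelled Hep3B, so that both run towards more CD146. Of 32 members, 12 differed (37.5%), 11 with a higher value in HepG2 and 1 with a lower value, beside 36.4% of all 18870 genes tested (17.2% higher and 19.2% lower). The difference was 2.38 for F10 (SE 0.20, adjusted p = 8.88e-15), 1.34 for PLAT (SE 0.26, adjusted p = 3.25e-05), 1.79 for A2M (SE 0.40, adjusted p = 0.000201), 0.32 for GGCX (SE 0.07, adjusted p = 6.62e-05) and 3.19 for F7 (SE 0.59, adjusted p = 1.01e-05), all on the log2 scale. It was -0.36 for F12 (SE 0.19, adjusted p = 0.144) and 0.27 for PLAUR (SE 0.20, adjusted p = 0.312), which did not pass the test. Without CD146 shRNA replicate 3, 6 members differed in the higher direction and 0 in the lower, namely F7, F10, PROZ, GGCX, A2M and PLAT, and the fibrinogen chains no longer did. Over all genes, 6631 were called without that library (47.1% of them higher), against 6866 with it. The calls of members thus fell in number while those of all genes stayed near their former number.

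Around these genes, 32 others of the clotting system were examined, comprising surface receptors, cofactors, secretion and activation factors and further inhibitors. In libraries labelled Hep3B, 6 of the 23 tested rose and 9 fell with the CD146 shRNA, beside 26.8% higher and 28.5% lower of all genes tested. SERPINE2, a cell-surface inhibitor of thrombin and urokinase, averaged 168 ± 2.75 CPM with the CD146 shRNA and 514 ± 37.9 CPM with the control shRNA (log2 fold change -1.61, adjusted p = 4.22e-28). ENO1, an enolase that also binds plasminogen, fell by 0.30 on the log2 scale (adjusted p = 4.87e-08). The chains of C4b-binding protein, which binds protein S, rose together, C4BPB by 1.08 and C4BPA by 1.10 on the log2 scale (adjusted p = 5.06e-24 and 3.78e-13). MCFD2, which carries factors V and VIII out of the endoplasmic reticulum, rose by 0.62 on the log2 scale (adjusted p = 6.39e-16). Vitronectin (VTN), an adhesive protein of plasma and matrix, averaged 6.64 ± 0.155 CPM with the CD146 shRNA and 0.746 ± 0.259 CPM with the control shRNA (log2 fold change 3.11, adjusted p = 6.95e-16) and overlaps SARM1. With 18, 7 and 15 counts in the control shRNA libraries, VTN passed the filter through its level in the CD146 shRNA group. A difference was thus built into its being tested.

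In HepG2, 6 of 27 of these genes rose and 6 fell with CD146 overexpression, beside 9.55% higher and 10.3% lower of all genes tested. THBS1, the platelet and matrix protein thrombospondin 1, averaged 98.3 ± 2.68 CPM with CD146 overexpression and 56.6 ± 3.63 CPM with pLVX (0.79, adjusted p = 2.77e-19). The protease-activated receptor gene F2RL1 averaged 39.9 ± 1.11 CPM with CD146 overexpression and 26.5 ± 2.14 CPM with pLVX (0.59, adjusted p = 4.16e-10). ANXA2, a surface receptor of plasminogen and PLAT, averaged 112 ± 4.90 CPM with CD146 overexpression and 146 ± 2.41 CPM with pLVX (-0.38, adjusted p = 5.48e-11). CALU, an inhibitor of vitamin K-dependent carboxylation, averaged 466 ± 5.17 CPM with CD146 overexpression and 564 ± 17.3 CPM with pLVX (-0.28, adjusted p = 6.11e-10), and C4BPA fell by 0.45 on the log2 scale (adjusted p = 5.68e-09).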

How the data were processed

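Whole-number counts per Ensembl gene ID and FPKM rounded to 2 decimals were deposited by the authors. Per the submitters' processing notes, the tools included HTSeq 0.6.1, HISAT2 2.2.1 and cutadapt 1.9.1. Build, annotation and strand setting are not given in the sources used here, so reads of overlapping genes (21 of the 35 members overlap another counted gene) may have been split or lost. IDs were named for 61757 of 61806 rows, and positions were taken from GENCODE v29 (GRCh38). The members and lists were chosen with earlier results of these data known.

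Counts were tested in R 4.3.3 with the two-sided quasi-likelihood test of edgeR 4.0.16 (TMM, filterByExpr with a minimum count of 10, Benjamini-Hochberg over all genes tested). "Rose", "fell" and "called" mean an adjusted p under 0.05. Each line was fitted alone, and contrasts between lines used all 12 libraries. SE is the absolute log2 fold change over the square root of F. CPM used TMM factors over all 12 libraries. Alternatives were DESeq2 1.42.0, limma 3.58.1 on log2(FPKM + 0.1) and log2(FPKM + 1) with FPKM of at least 0.1 in 3 libraries, other scalings and filters, and leaving out each library. Members called in either line were given in every library. Of the other clotting genes, the 6 with the smallest adjusted p per line were named, except 1 that is not reported here. The fits were checked on simulated data. Replicates differed beyond sampling noise (chi-square per gene 1.74 to 3.93), so none was counted as a copy.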

Additional observations from a re-analysis of the deposited data

Results flagged for a closer look

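For 12 members the effect of more CD146 differed between the lines by the test of the difference (HepG2 minus labelled Hep3B, log2 scale, edgeR over all 12 libraries). It was 6.28 for FGG (adjusted p = 0.000402), 5.02 for FGA (0.000428), 2.92 for FGB (0.0402), 4.16 for SERPINA5 (0.0131) and 1.65 for FGL1 (0.0098). Without CD146 shRNA replicate 3 none of these 5 was called, with values of 0.18, -1.64, -1.94, 2.96 and 1.36. That library had 43 counts of FGA and 29 of FGG, against 1 and 0 in the 5 other libraries labelled Hep3B together. For PROS1 the difference was -0.18 (adjusted p = 0.0478), and this call was lost in 12 of 17 alternatives.

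The other 6 were called with and without that library. They were F7 at 3.19 (3.46 without it), F10 at 2.38 (2.49), A2M at 1.79 (1.06), PLAT at 1.34 (1.36), PROZ at 1.00 (1.21) and GGCX at 0.32 (0.31). PROZ was lost without CD146 shRNA replicate 1 (0.49, adjusted p = 0.396). F7 in libraries labelled Hep3B rests on 5 to 19 counts with the CD146 shRNA and 0 to 3 with the control shRNA. The cause of these differences was not tested, and line, medium and kind of perturbation cannot be told apart in them.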

How the results depend on the processing

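In libraries labelled Hep3B, 99 of 104 values of called members under the alternatives kept their call and direction, in HepG2 173 of 180, between the lines all 544, and for the difference of effects 178 of 204. Between the lines most members passed the filter through the line where they are high, so the 544 are a description only. An alternative that gave a member no adjusted p is not among these values. A2M thus had 14 in libraries labelled Hep3B, against 15 for F10. With the CD146 shRNA, 6 members rose, but 11 did with no filter and 14 in a fit of all 12 libraries, both of which test more genes of low count. Over all genes, 9361 were called in either direction with no filter and 9568 in the fit of all 12 libraries, against 9385 in the main fit. With CD146 overexpression, 5 rose, but 3 in the fit of all 12 libraries, where FGA (adjusted p = 0.278) and SERPINC1 (0.0656) were lost. That fit called 2540 of all genes in HepG2, against 3037 in the main fit. For the difference, the 11 higher members were 7 by DESeq2, and the 1 lower member was 0 by RLE scaling, upper quartile scaling, DESeq2 and no filter. DESeq2 called 5696 of all genes there, against 6866 in the main fit. Leaving out each library gave 6 to 9 higher and 1 lower with the CD146 shRNA, 4 to 6 higher and 7 to 8 lower with CD146 overexpression, 27 and 5 between the lines, and 6 to 11 higher and 0 to 1 lower for the difference. The difference of FGA ran from -1.64 (without CD146 shRNA replicate 3, reversed) to 6.75 (without control shRNA replicate 1), and that of FGB from -1.94 (likewise reversed) to 4.67 (without control shRNA replicate 2). Higher calls made up 48.5% over all genes in libraries labelled Hep3B and 58.4% by upper quartile scaling (median shift 0.07), and 48.1% in HepG2 and 73.5% by limma on FPKM (shift 0.07), and the cause was not tested.

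Same-numbered libraries deviated together with correlations of 0.02 to 0.033 in libraries labelled Hep3B and 0.001 to 0.015 in HepG2, so the numbers were not taken as pairs. A replicate block gave 6 higher and 1 lower with the CD146 shRNA, 5 and 7 with CD146 overexpression, and 12 and 1 for the difference. In libraries labelled Hep3B, 23 members lay near the floor of 3 counts, so smaller differences in them were not detectable at this depth.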
